A study of Mus musculus with 6 samples.

Results

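The miR-344 family is a set of mouse microRNAs (miRNAs) made from 13 hairpin precursors on chromosome 7. Here it was taken as every listed mature miRNA whose name begins with mmu-miR-344, with any letter suffix and either arm, which gave 12 of the 685 mature miRNAs in the tables. The family was picked because 1 member, mmu-miR-344-3p (miR-344-3p below), was lower in RSL3 than in DMSO libraries in an earlier look at these same data. All values of that contrast are therefore given as a description, with no p-value for any member, and they support nothing by themselves.

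The samples were N2a cells, a mouse neuroblastoma line. All cells, in both groups, had been turned into neuron-like cells with retinoic acid (10 µM, 96 h). The RSL3 group then received 5 µM RSL3 for 24 h. RSL3 inhibits the lipid peroxidase GPX4 and brings on ferroptosis, an iron-dependent form of cell death. The DMSO group received the solvent at the same concentration. There were 3 small RNA libraries in each group, and the labels do not say whether they came from separate cultures. Cell death was not measured in the files analysed here.

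A miRNA is cut from a hairpin transcript, first in the nucleus by Drosha and then in the cytoplasm by Dicer. Each hairpin can give a product from its 5′ side (5p) and one from its 3′ side (3p), and one of them usually persists on an Argonaute protein. Bases 2 to 8 of the mature miRNA, the seed, pair with target mRNAs, which are then repressed, so miRNAs with the same seed can share targets. The miR-344 family is known from rodents and was first described in brain. Its precursors lie near Ndn and Magel2, imprinted genes that neurons express from the paternal allele.

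All 12 entries had a mature sequence in RefSeq (build GRCm38.p6). The 8 products of the 3p side are shown because they carried most of the signal and differ in their seeds, which are in capitals; sequences run 5′ to 3′.
miR-344-3p: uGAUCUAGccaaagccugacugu
miR-344c-3p: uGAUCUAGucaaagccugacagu
miR-344b-3p: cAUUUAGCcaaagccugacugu
miR-344f-3p: cUCUAGCCaggaccugacuac
miR-344g-3p: cAGGCUCUagccaggggcuuga
miR-344d-3p: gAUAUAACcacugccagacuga
miR-344e-3p: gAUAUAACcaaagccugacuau
miR-344h-3p: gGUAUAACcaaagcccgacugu

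These 8 products hold 6 different seeds. The seed GAUCUAG belongs to miR-344-3p and miR-344c-3p, which differ only by C9U and U21A (the base in miR-344-3p first, positions counted from 1 at the 5′ end). The seed AUAUAAC belongs to miR-344d-3p and miR-344e-3p, which differ by C11A, U12A, A16U, G21A and A22U. The change A2G separates the seed of miR-344h-3p from that of miR-344e-3p. The closest pair in sequence but not in seed was miR-344-3p and miR-344b-3p. They share an unbroken run of 18 bases at the 3′ end, uagccaaagccugacugu, so short reads that lack the 5′ end could fit both, and how such reads were assigned is not stated. The seed of miR-344f-3p, UCUAGCC, also occurs in miR-344-3p and miR-344g-3p, but starts there at base 4 and at base 6. Among the 554 listed miRNAs with a RefSeq sequence, 1 outside the family carried any of the family's seeds, namely miR-410-3p with AUAUAAC.

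The 5p products separate precursors that the 3p product cannot. The 3 hairpins Mir344d-1, Mir344d-2 and Mir344d-3 give the same miR-344d-3p, whereas their 5p products differ, as these lines show with the seed in capitals.
miR-344d-1-5p: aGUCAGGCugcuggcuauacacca
miR-344d-2-5p: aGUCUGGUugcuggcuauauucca
miR-344d-3-5p: aGUCAGGCuagugguuauacucc
The fourth 5p entry, miR-344c-5p, shares the seed GUCAGGC with miR-344d-1-5p and miR-344d-3-5p. The hairpins of the highest 3p products are shown whole, with the listed mature products in capitals, to show where on the stem they lie.
Mir344: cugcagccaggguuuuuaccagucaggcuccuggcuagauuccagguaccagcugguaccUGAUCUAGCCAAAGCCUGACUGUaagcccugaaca
Mir344d-3: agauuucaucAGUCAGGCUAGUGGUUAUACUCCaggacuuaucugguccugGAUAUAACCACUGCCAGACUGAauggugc

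The 13 precursors lie on the minus strand of chr7:61683124-62085310 (GRCm38), a stretch of 402 kb, with gaps of 2.08 to 63.8 kb between neighbours. In GENCODE release M21, 7 of them (Mir344, Mir344c, Mir344b, Mir344h-2, Mir344h-1, Mir344e and Mir344d-3) fall in introns of the long noncoding RNA gene A230057D06Rik, on the same strand. Mir344-2 lies in an intron and Mir344g in an exon of a second noncoding gene of that strand, A330076H08Rik. The other 4 (Mir344i, Mir344f, Mir344d-2 and Mir344d-1) overlap no other annotated gene. The nearest protein-coding gene is Ndn, 261 kb away. GENCODE has 5 other genes of type miRNA inside the cluster and 2 within 9.22 kb of it, which carry no miRNA name there and are not analysed here. No other miRNA of the RefSeq table has a precursor within 1000 kb of the cluster. The sequence of miR-344-3p is encoded by both Mir344 and Mir344-2, and that of miR-344h-3p by both Mir344h-1 and Mir344h-2, so their reads cannot be assigned to one precursor.

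The libraries held 3406276 to 4989380 recovered miRNA reads in the RSL3 group and 4306460 to 6058006 in the DMSO group, and levels are in CPM (the deposited CPM, taken over the listed miRNAs and scaled by the TMM factor of edgeR). One read was worth 0.157 to 0.314 CPM. Mature miRNAs have nearly the same length, 21 to 24 bases in this family, so their CPM were compared without a length correction. No correction was made for how well each sequence is captured in a library. Ranks, shares and ratios between different miRNAs therefore compare read counts and need not equal ratios of molecules. The series has no N2a cells without retinoic acid, so marker levels cannot test the labelled neuronal cell type and are a description. The 11 neuron-enriched miRNAs looked up were all listed. Their summed level was 185138 to 232698 CPM in RSL3 libraries and 217615 to 293422 CPM in DMSO libraries, most of it miR-7a-5p, while miR-124-3p, the classical neuronal miRNA, was at 150 to 221 CPM in RSL3 libraries and 135 to 165 CPM in DMSO libraries. Entries of this list went both ways. The log2 difference was -0.23 for miR-137-3p, without overlap. With overlap, it was -0.28 for miR-218-5p, 0.30 for miR-132-3p and 0.25 for miR-124-3p. Summed markers of other cell types differed without overlap for the 2 endothelial entries (781 to 907 CPM in RSL3 and 642 to 701 CPM in DMSO libraries) and the 3 glial entries (965 to 1149 CPM in RSL3 and 794 to 888 CPM in DMSO libraries). Within these lists the entries did not move as one. The log2 difference was 0.38 for miR-126a-3p and -0.47 for miR-126a-5p, both without overlap between the groups. It was 0.38 for miR-23a-3p, without overlap, and 0.05 and -0.06 for miR-219a-2-3p and miR-338-3p, with overlap. Their part in the results below was not tested. The smooth muscle and fibroblast list was high in both groups, at 35941 to 37140 CPM in RSL3 and 35246 to 38417 CPM in DMSO libraries. Most of it was miR-143-3p, with a log2 difference of -0.0011 and overlap. The log2 differences of its other entries, miR-145a-5p, miR-199a-3p and miR-214-3p, were -0.52, -0.34 and -0.24. Of these, only miR-145a-5p did not overlap between the groups. The liver miRNA miR-122-5p was at 2.41 to 5.96 CPM in RSL3 and 1.41 to 3.54 CPM in DMSO libraries. The listed erythroid and immune entries summed to 72.4 to 130 CPM in RSL3 and 68.8 to 93.7 CPM in DMSO libraries. The immune miRNAs miR-142a-3p and miR-223-3p were not among the listed miRNAs. The muscle entries summed to 68.8 to 129 CPM in RSL3 and 105 to 193 CPM in DMSO libraries. Of these, miR-133a-3p had a log2 difference of -0.95 without overlap, and miR-1a-3p and miR-206-3p had -0.41 and -0.34 with overlap. The epithelial list, without the unlisted miR-141-3p, summed to 362 to 450 CPM in RSL3 and 398 to 462 CPM in DMSO libraries. Of the pluripotent list only miR-295-3p was listed, under 3 CPM in every library.

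The family spanned a wide range of levels and was dominated by 3p products. Mean levels over the 6 libraries differed 2578-fold between the highest and the lowest entry, and 6 of the 12 entries had a mean of at least 100 CPM. The order was miR-344d-3p, miR-344-3p, miR-344b-3p, miR-344d-3-5p, miR-344c-3p, miR-344f-3p, miR-344e-3p, miR-344g-3p, miR-344h-3p, miR-344d-1-5p, miR-344d-2-5p and miR-344c-5p. Among RSL3 libraries, neighbours in this order overlapped only between the last 3 entries. Among DMSO libraries, miR-344c-3p with miR-344f-3p and miR-344e-3p with miR-344g-3p overlapped too. By mean level over all libraries, miR-344d-3p ranked 38th of the 685 listed miRNAs (33 to 44 by library) and miR-344-3p 73rd (66 to 80). Directly beside miR-344-3p in level stood miR-598-3p above it and miR-361-3p below it, with overall means of 1308 and 1243 CPM.

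**Figure D1:**
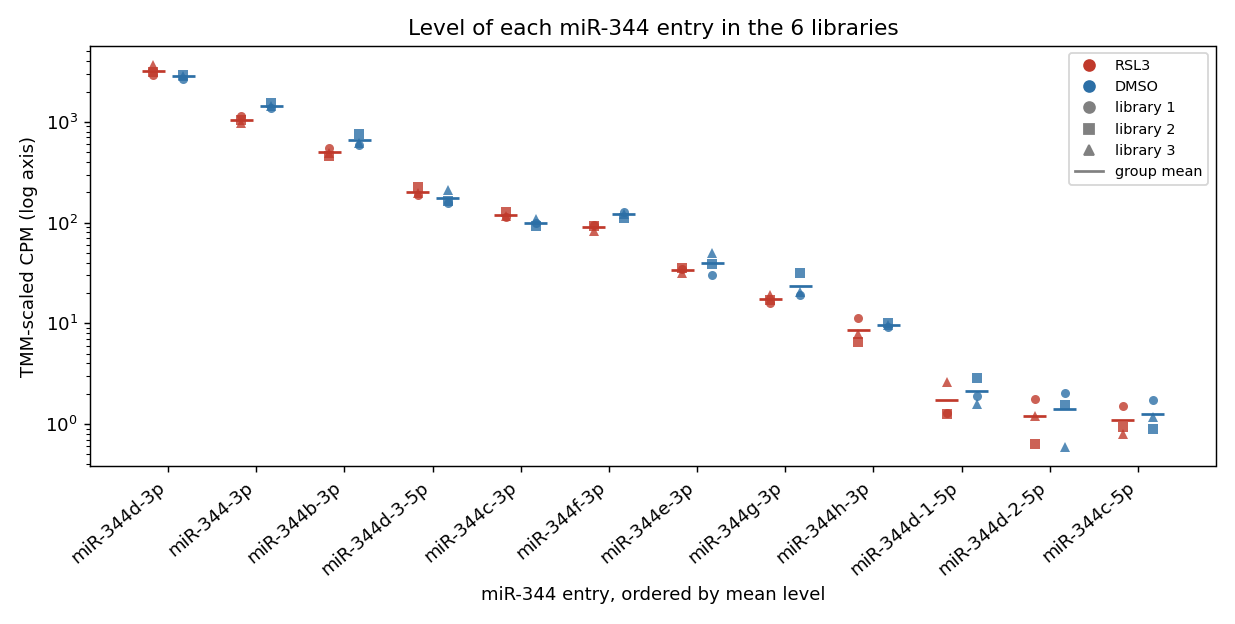
Level of the 12 miR-344 entries in each library in TMM-scaled CPM on a log axis, ordered by mean level; red marks are RSL3 and blue marks DMSO libraries, the marker shape gives the library number and short lines the group means (n = 3). All 3 RSL3 libraries lie below all 3 DMSO libraries for miR-344-3p, miR-344b-3p and miR-344f-3p and above them for miR-344c-3p.

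The entry that led to the choice of the family, miR-344-3p, was at 1147, 1034 and 972 CPM in RSL3 libraries 1 to 3, against 1373, 1542 and 1428 CPM in DMSO libraries 1 to 3. Every RSL3 library was below every DMSO library. The means were 1051 ± 88.9 CPM in RSL3 and 1447 ± 86.2 CPM in DMSO libraries (SD, n = 3 each). The log2 difference, RSL3 minus DMSO on the log2(CPM + 1) scale, was -0.46 ± 0.11 (SE from limma), a level of 0.726 times the DMSO level. In bulk RNA, fewer cells of a type and less of the miRNA per cell cannot be told apart.

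Next in level among the lower entries stood miR-344b-3p, which comes from a single precursor and has a seed of its own. It was at 549, 463 and 487 CPM in RSL3 libraries, against 593, 750 and 620 CPM in DMSO libraries. The groups did not overlap, although RSL3 library 1 and DMSO library 1 lay close together. The log2 difference was -0.39 ± 0.12 (SE). The ratio of miR-344-3p to miR-344b-3p within a library was 2.11 ± 0.12 in RSL3 and 2.22 ± 0.15 in DMSO libraries (SD, n = 3 each), so this ratio overlapped between the groups.

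The product of the first listed precursor in the direction of transcription, miR-344f-3p, was at 93.8, 91.6 and 82.6 CPM in RSL3 libraries and at 127, 111 and 123 CPM in DMSO libraries. Again every RSL3 library was below every DMSO library, and the log2 difference was -0.42 ± 0.13 (SE). It held 292 to 412 reads in RSL3 and 502 to 809 reads in DMSO libraries. The ratio of miR-344-3p to miR-344f-3p was 11.8 ± 0.47 in RSL3 and 12.1 ± 1.56 in DMSO libraries (SD, n = 3 each), again with overlap.

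The seed partner of miR-344-3p, miR-344c-3p, went the other way. Its levels were 114, 128 and 116 CPM in RSL3 libraries and 98.6, 92.3 and 109 CPM in DMSO libraries. All RSL3 libraries were above all DMSO libraries, by a log2 difference of 0.25 ± 0.13 (SE). Within a library there were 8.86 ± 1.08 units of miR-344-3p for each unit of miR-344c-3p in RSL3 and 14.6 ± 1.90 in DMSO libraries (SD, n = 3 each), without overlap between the groups. This ratio holds the difference for which miR-344-3p was picked. Because miR-344-3p was the higher of the pair, the summed level of the seed GAUCUAG followed it, at 1261, 1162 and 1088 CPM in RSL3 libraries and 1471, 1634 and 1537 CPM in DMSO libraries.

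The highest entry of the family, miR-344d-3p, was at 2932, 3103 and 3667 CPM in RSL3 libraries and at 2680, 2941 and 2881 CPM in DMSO libraries. The groups overlapped, since RSL3 library 1 was just below DMSO library 2, and RSL3 library 3 was the highest of all. The log2 difference was 0.18 ± 0.12 (SE). Its seed partner miR-344e-3p, at 34.3, 35.1 and 31.5 CPM in RSL3 and 30.4, 38.8 and 49.6 CPM in DMSO libraries, had a log2 difference of -0.20 ± 0.19 (SE) and also overlapped. Leaving out 1 library moved it to -0.03 without DMSO library 3 and to -0.38 without DMSO library 1, and moved miR-344d-3p to 0.09 without RSL3 library 3. Outside the family, miR-410-3p, an imprinted miRNA of the Dlk1-Dio3 region with the same seed, was at 10.93, 21.02 and 12.03 CPM in RSL3 and 16.5, 11.8 and 16.7 CPM in DMSO libraries, with a log2 difference of -0.07 ± 0.25 (SE). Of these 3 listed miRNAs with the seed AUAUAAC, miR-344d-3p thus had the highest CPM by far in both groups.

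The 5p products show which of the miR-344d hairpins gave detectable 5p RNA. Of the summed 5p signal of the 3 hairpins, miR-344d-3-5p held 98.6% on average in RSL3 and 98.0% in DMSO libraries, with a range of 97.3% to 99.2% over all libraries. It was at 187, 225 and 196 CPM in RSL3 libraries and 155, 163 and 212 CPM in DMSO libraries, so the groups overlapped, with a log2 difference of 0.21 ± 0.14 (SE), which was 0.12 without DMSO library 1, 0.13 without RSL3 library 2 and 0.34 without DMSO library 3. Per unit of miR-344d-3p there were 0.0633 ± 0.0095 units of miR-344d-3-5p in RSL3 and 0.0623 ± 0.0098 in DMSO libraries (SD, n = 3 each), and the groups overlapped. How much miR-344d-3p each hairpin made cannot be read from these values, since 5p and 3p products of one hairpin can persist to different degrees.

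The other entries were low. The log2 difference of miR-344g-3p was -0.39 ± 0.21 (SE), with 15.8, 16.9 and 19.3 CPM in RSL3 and 19.0, 31.5 and 20.3 CPM in DMSO libraries, where DMSO library 2 stood above the rest; without that library the difference was -0.17. For miR-344h-3p the log2 difference was -0.18 ± 0.22 (SE), with 6.59 to 11.2 CPM in RSL3 and 9.25 to 9.99 CPM in DMSO libraries; it was -0.38 without RSL3 library 1 and -0.04 without RSL3 library 2. The 5p entries miR-344d-1-5p, miR-344d-2-5p and miR-344c-5p stayed under 3 CPM in every library, on 2 to 13 reads, a range in which a difference between the groups was not detectable at this depth. Their log2 differences were -0.21, -0.10 and -0.11, with SEs of 0.29, 0.32 and 0.28. On the Mir344c hairpin the 5p product therefore had few reads, at 0.0092 ± 0.0036 units per unit of miR-344c-3p in RSL3 and 0.0126 ± 0.0042 in DMSO libraries (SD, n = 3 each).

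**Figure D2:**
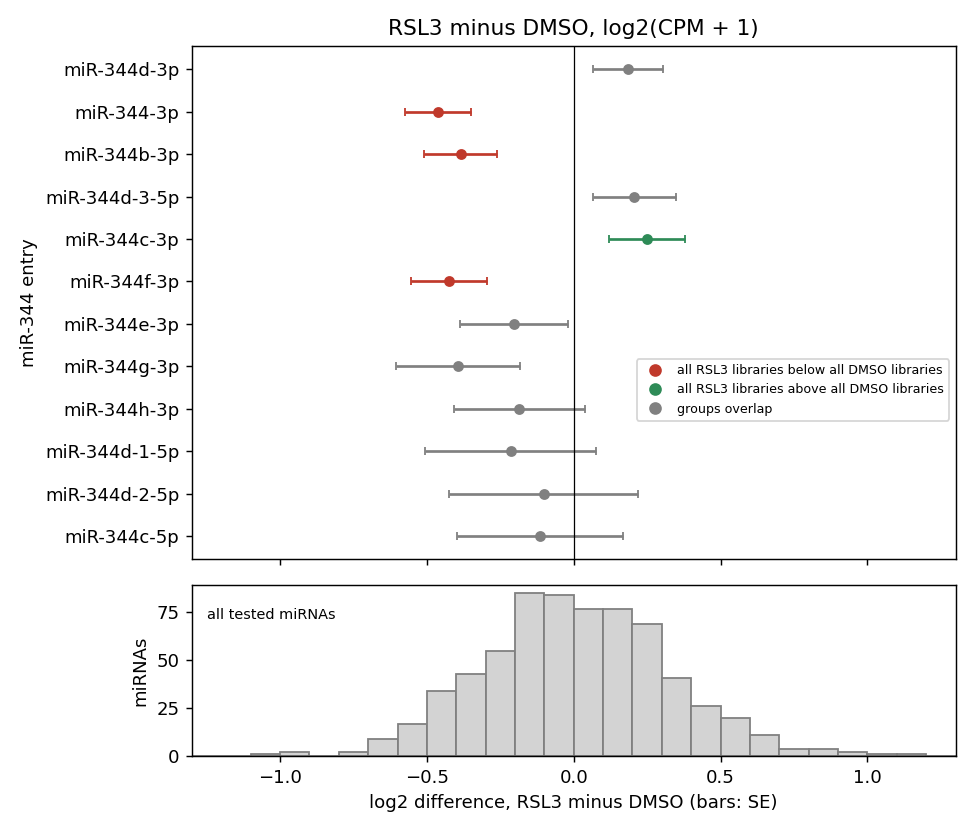
Upper panel: log2 difference, RSL3 minus DMSO, of each miR-344 entry with its SE from limma, coloured by whether the 3 RSL3 libraries lie wholly below (red) or above (green) the 3 DMSO libraries or overlap with them (grey). Lower panel: the same difference for all 666 tested miRNAs, of which 1 lies outside the plotted range. The coloured miR-344 entries lie within the range of that distribution.

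All 12 entries passed the filter of 1 CPM in at least 3 libraries, and the log2 difference was negative in 9 and positive in 3 of them, against 49.8% negative and 50.2% positive among the 666 miRNAs tested. The median was -0.19 for the 12 entries and 0.0013 for all tested miRNAs. The groups did not overlap in 4 of the 12 entries (3 lower and 1 higher), where 24.3% of all tested miRNAs did not overlap. In limma with Benjamini-Hochberg adjustment over all tested miRNAs, 0 of the 12 entries passed an adjusted p of 0.05, and 0.751% of all miRNAs passed. At an unadjusted p of 0.05 in limma, 3 entries were lower and 0 higher, beside 8.41% lower and 8.86% higher of all miRNAs. In edgeR's quasi-likelihood test on the recovered reads 0 entries passed, beside 0.3% lower and 0.601% higher of all miRNAs. DESeq2 gave an adjusted p to 8 of the entries and called 2 of them lower and 0 higher, beside 5.5% lower and 4.97% higher among the 382 miRNAs to which it gave one. Since the family was chosen from this contrast, these counts stand only beside the share of all miRNAs, and nothing is read from them.

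The summed level of the 12 entries was nearly the same in both groups while its make-up differed. The sum was 5088, 5106 and 5584 CPM in RSL3 libraries and 5091, 5685 and 5455 CPM in DMSO libraries, and the groups overlapped (log2 difference -0.04). It was 0.478% to 0.595% of the listed miRNA signal of a library. The share of the sum held by miR-344-3p was 22.5%, 20.3% and 17.4% in RSL3 libraries and 27.0%, 27.1% and 26.2% in DMSO libraries. The share of miR-344d-3p was 57.6%, 60.8% and 65.7% in RSL3 libraries and 52.6%, 51.7% and 52.8% in DMSO libraries. Neither share overlapped between the groups, and both varied much more among RSL3 than among DMSO libraries. They are parts of the same sum, so a lower share of miR-344-3p raises that of miR-344d-3p, whose own level overlapped between the groups. Since miR-344-3p was picked for its difference in this contrast, these shares and the ratio that follows restate that choice in part. In other terms, there were 0.330 ± 0.063 units of miR-344-3p per unit of miR-344d-3p in RSL3 and 0.511 ± 0.014 in DMSO libraries (SD, n = 3 each). Without miR-344d-3p, the sum of the other 11 entries was 2156, 2003 and 1917 CPM in RSL3 libraries and 2411, 2744 and 2574 CPM in DMSO libraries, without overlap. That sum includes miR-344-3p. Without miR-344-3p, the sum of the remaining 11 entries was 3941, 4072 and 4612 CPM in RSL3 libraries and 3719, 4144 and 4027 CPM in DMSO libraries, with overlap and a log2 difference of 0.08.

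**Figure D3:**
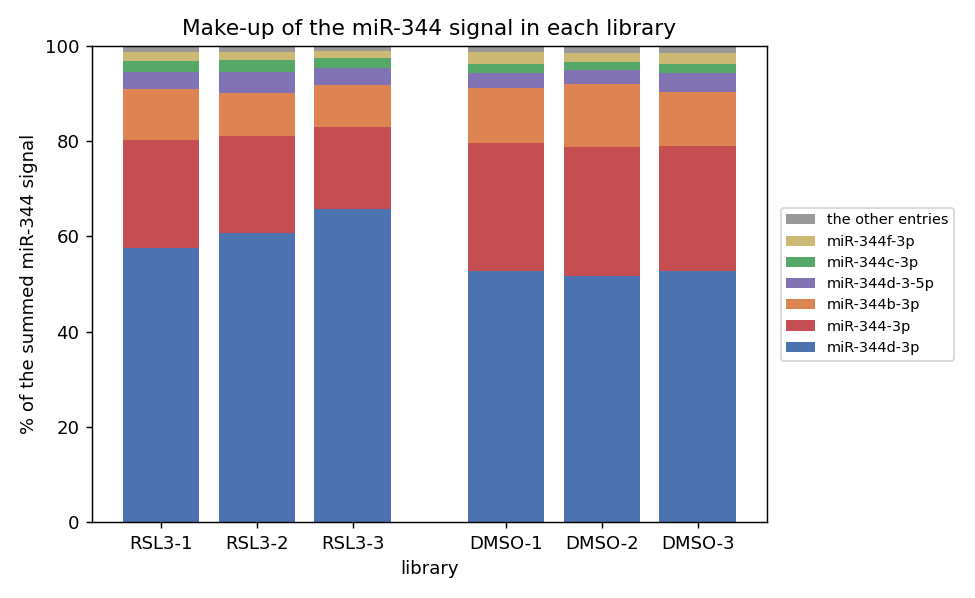
Share of the summed miR-344 signal held by each entry, in percent, in the 3 RSL3 libraries and the 3 DMSO libraries; the 6 entries under 100 CPM are pooled as the other entries. The miR-344d-3p segment is 57.6% to 65.7% in RSL3 and 51.7% to 52.8% in DMSO libraries, and the miR-344-3p segment 17.4% to 22.5% in RSL3 and 26.2% to 27.1% in DMSO libraries. These shares hold the difference for which miR-344-3p was picked.

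Across the 6 libraries the entries with higher levels did not all have the same profile. Likeness to miR-344-3p was measured as the root mean square difference between log2(CPM + 1) values, each centred on its own mean over the 6 libraries, among the 226 other miRNAs with a mean of at least 100 CPM. The median of this measure was 0.29. The centring spans both groups, so the measure holds the RSL3 minus DMSO difference for which miR-344-3p was picked. The places below therefore largely restate that difference. Within the family it was 0.08 for miR-344b-3p, the fifth most alike of all, and 0.11 for miR-344f-3p, the 15th. It was 0.36 for miR-344d-3p, 0.38 for miR-344c-3p and 0.39 for miR-344d-3-5p, which took places 157, 171 and 175. Compared with each other by the same measure, these entries were closer. It was 0.09 for miR-344d-3-5p with miR-344c-3p. For miR-344d-3p it was 0.15 with miR-344c-3p and 0.18 with miR-344d-3-5p. Between miR-344b-3p and miR-344f-3p it was 0.18. These values too hold the RSL3 minus DMSO difference. The closest miRNAs of all to miR-344-3p were miR-669a-5p and miR-669p-5p (0.06 each), which come from the Sfmbt2 intron and had the same values. They hold a single profile, but the places given here count them separately, as places 1 and 2. Then came miR-98-5p of the let-7 family (0.07), miR-423-3p (0.08) and, in sixth place after miR-344b-3p, miR-145a-5p (0.09), a miRNA abundant in smooth muscle. In RSL3 and DMSO libraries these were at 2076 ± 174 and 2747 ± 72.6 CPM for miR-669a-5p, at 92.7 ± 7.26 and 126 ± 14.1 CPM for miR-98-5p, at 610 ± 61.6 and 825 ± 50.0 CPM for miR-423-3p, and at 666 ± 78.4 and 952 ± 93.0 CPM for miR-145a-5p (SD, n = 3 each). The log2 differences of miR-669a-5p, miR-98-5p, miR-423-3p and miR-145a-5p were -0.41, -0.44, -0.44 and -0.52, beside -0.46 for miR-344-3p. The seeds of miR-98-5p and miR-423-3p in RefSeq are not among those of the family.

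**Figure D4:**
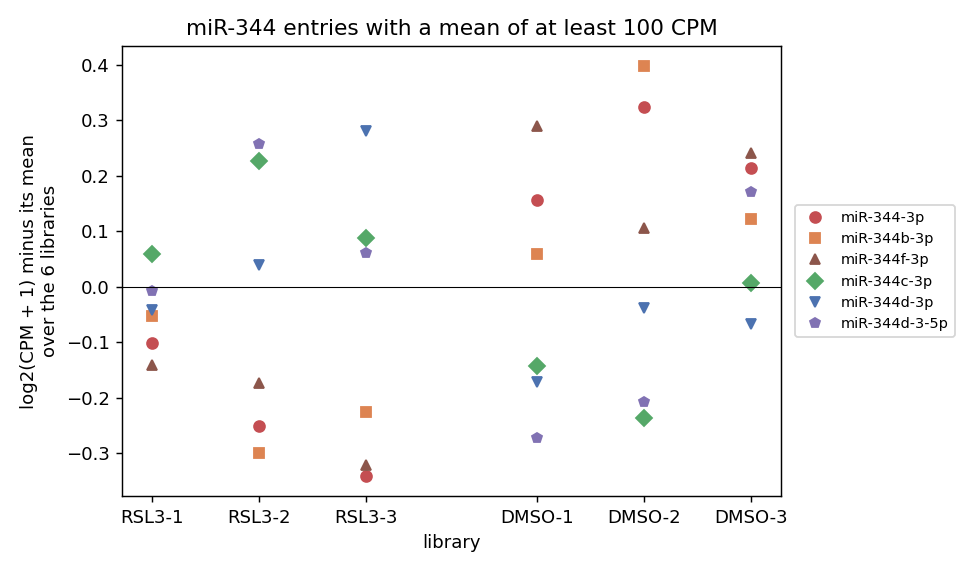
Log2(CPM + 1) of the 6 miR-344 entries with a mean of at least 100 CPM, minus its mean over the 6 libraries, by library (RSL3 left, DMSO right; 1 point per library). The points of miR-344-3p, miR-344b-3p and miR-344f-3p are below 0 in every RSL3 library and above 0 in every DMSO library; the other 3 entries do not show this. The centring spans both groups, so these positions largely restate the log2 differences.

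In the direction of transcription, the products of Mir344f, Mir344g, and Mir344-2 with Mir344, over the first 207 kb, had log2 differences of -0.42, -0.39 and -0.46, of which the -0.39 of miR-344g-3p was -0.17 without DMSO library 2. At 248 kb stood Mir344c, whose 3p product was at 0.25, and at 295 kb Mir344b, at -0.39. Beyond these, miR-344h-3p and miR-344e-3p were at -0.18 and -0.20, and the last 3 hairpins gave miR-344d-3p at 0.18. Neighbours inside the same annotated host gene, A230057D06Rik, thus included entries with positive and with negative differences. In the same order along the cluster, the 3p products of Mir344f, Mir344g, Mir344-2 with Mir344, Mir344c and Mir344b had means over the 6 libraries of 105, 20.5, 1249, 110 and 577 CPM, those of Mir344h and Mir344e 9.08 and 36.6 CPM, and that of the 3 Mir344d hairpins 3034 CPM.

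**Figure D5:**
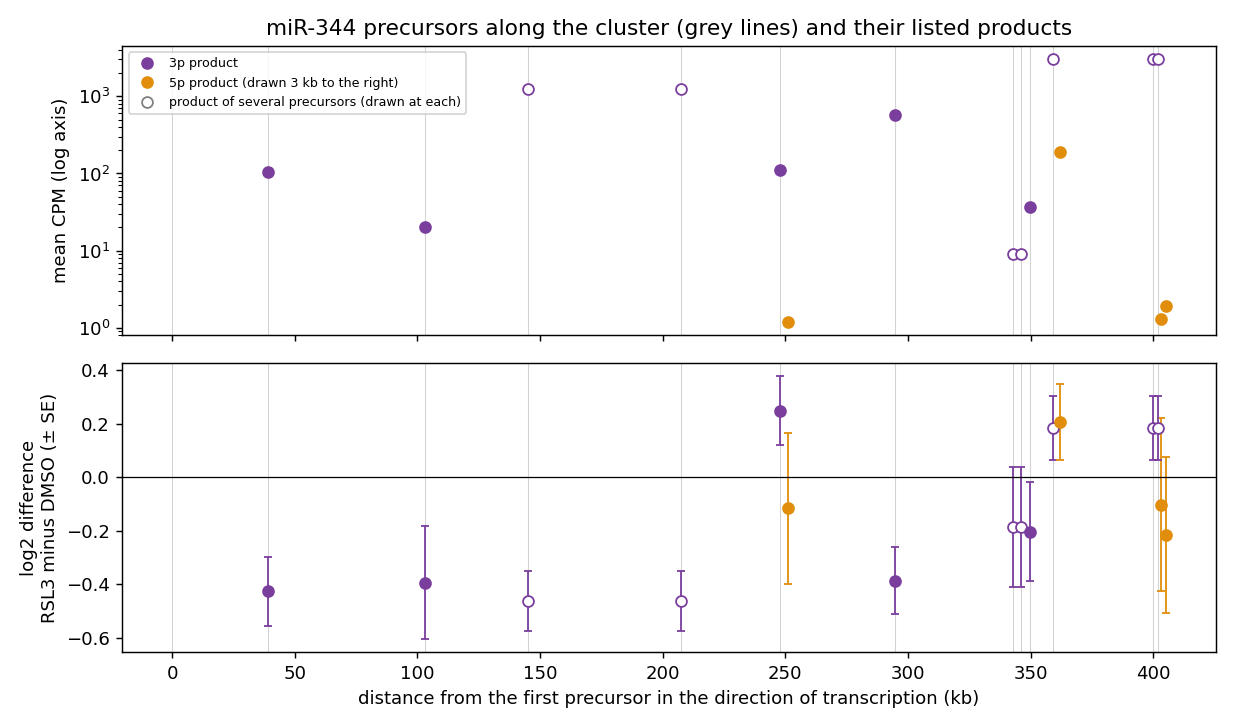
Mean level over the 6 libraries (upper panel, log axis) and log2 difference, RSL3 minus DMSO, with its SE (lower panel) of the listed products of each miR-344 precursor, against the distance in kb from the first precursor in the direction of transcription; grey lines mark the 13 precursors and open circles are products of several precursors, drawn at each. Products with negative and positive differences are interspersed, with miR-344c-3p at 0.25 between miR-344-3p at -0.46 and miR-344b-3p at -0.39.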

How the data were processed

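Small RNA libraries of 15 to 35 nt inserts were sequenced. Per the submitters' processing notes, cutadapt, Bowtie, edgeR and build GRCm38 were used; their settings, and how reads that fit more than one miRNA were handled, are not stated. The deposited signal, which the authors named CPM, summed to 949375 to 1068892 per library. Dividing each library by its smallest unit gave whole reads (100% of values within 0.01), and total reads times edgeR's TMM factor (0.936 to 1.05) gave the divisor, so the deposited signal was TMM-scaled CPM.

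R 4.3.3 and limma 3.58.1 were run with a variance trend on log2(CPM + 1), two-sided, with Benjamini-Hochberg adjustment, for the 666 of 685 miRNAs with 1 CPM or more in at least 3 libraries. This scale understates the change of low miRNAs. As alternatives, the recovered reads were tested with edgeR 4.0.16 and DESeq2 1.42.0. The limma step was tested on simulated data. The chi-square between replicates, divided by its degrees of freedom, was 82.8 to 292, so no library was a copy. The spread between libraries, on which all p-values rest, may be technical. Counting floors (3 reads, 0.470 to 0.941 CPM) cover counting error only.

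The members, the lists and the rule for named miRNAs were chosen with earlier results of these data known. That rule takes all miR-344 entries, the 6 miRNAs most like miR-344-3p, its neighbours in level, miRNAs that share a seed or lie within 1000 kb, and marker lists. Sequences are from RefSeq (GRCm38.p6) and genes from GENCODE M21.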

Additional observations from a re-analysis of the deposited data

How the results depend on the processing

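Over 19 alternatives the log2 difference of miR-344-3p, -0.46 as reported, ran from -0.53 to -0.40, and from -0.53 to -0.41 without 1 library. Alternatives that change only the filter, limma's variance settings or the replicate block cannot move the difference of an entry. They therefore add nothing to these ranges or to the counts of sign changes below. For the summed entries the pseudocount was not varied. The difference of the summed entries, -0.04, ran from -0.09 to -0.0036, and from -0.08 to -0.0043 without 1 library. The difference in the share held by miR-344-3p, -6.68 percentage points, ran from -7.92 to -5.35 without 1 library. The sign turned in 2 of 18 alternatives for miR-344d-2-5p. It turned in 0 of 15 for miR-344c-5p, in 0 of 18 for miR-344d-1-5p and miR-344h-3p and in 0 of 19 for each of the other 8 entries; entries that did not pass a filter gave no value there. Without 1 library, the difference of miR-344b-3p ran from -0.46 to -0.28, miR-344c-3p from 0.19 to 0.31, miR-344d-3p from 0.09 to 0.25, miR-344d-3-5p from 0.12 to 0.34, miR-344e-3p from -0.38 to -0.03, miR-344f-3p from -0.48 to -0.37, miR-344g-3p from -0.53 to -0.17 and miR-344h-3p from -0.38 to -0.04. The difference between the groups in the log2 ratio of miR-344d-3-5p to miR-344d-3p, 0.02 as reported, changed sign in 3 of 8. The count of miR-344 entries called lower was 0 as reported. It was 1 (miR-344-3p) after rescaling without the 5 most abundant miRNAs, where 12 of all 666 were called lower. In DESeq2 it was 2 (miR-344-3p and miR-344f-3p), where 21 of 382 were. Over the 6 fits that each lack a library it was 0 to 1. The 1 was miR-344-3p without RSL3 library 1, where 12 of 651 were called lower. The cause was not tested. Since the family was chosen from this contrast, nothing is read from these calls. The count called higher was 0 throughout. Over all miRNAs, 1 was called lower and 4 higher; the alternatives gave 0 to 21 lower and 1 to 19 higher.

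The labels do not say whether the replicate numbers pair the libraries. Deviations of same-numbered libraries from their group means correlated at -0.35, -0.33 and -0.19. These values cannot settle it, since deviations from a group mean depend on each other. The replicate block cannot move a difference in this balanced design, so miR-344-3p stayed at -0.46. With the block, 0 miR-344 entries were called, and over all miRNAs 0 were lower and 1 higher. Entries under 3 CPM rest on 2 to 13 reads, so their differences are limited by depth.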
